A study of Mus musculus with 24 samples.

Results

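Pou5f1, Sox2 and Nanog encode the transcription factors at the centre of the network that keeps mouse embryonic stem cells pluripotent. Open chromatin around these 3 genes was followed over the ATAC-seq peak lists of 24 libraries. The genes were taken by symbol from the GENCODE vM21 annotation (build mm10, GRCm38), and every peak within 150 kb either side of a gene start was used, a span that holds the distal enhancer region downstream of Sox2. So that libraries could be compared, windows of 501 bp were placed around peak summits. Of 233636 windows called by at least 2 libraries, 244 had their centre within 150 kb of one of the 3 starts: 69 at Pou5f1, 69 at Sox2 and 106 at Nanog. The genes and the distance were set without a measured value, while the windows themselves come from the called peaks.

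All libraries came from E14 mouse embryonic stem cells in which CTCF, a DNA-binding protein that anchors chromatin loops, carries an auxin-inducible degron (CTCF AID), a tag through which the auxin IAA triggers degradation of the protein. The 12 groups held 2 libraries each. In the CTCF lines, a line labelled overexpressed control was sampled both untreated and with 12 h of IAA. A line with overexpressed wild type CTCF and a line with overexpressed mutated CTCF were sampled with 12 h of IAA. The labels do not say which residues were mutated or how many clones a line represents. In the Chd4 and Chd8 sets, CTCF AID cells without IAA carried the hairpin named shluci, shRNA1 or shRNA2. In the serum set, CTCF AID cells labelled as in serum were sampled untreated or with 12 h of IAA. The other groups were grown in serum-free medium with LIF, PD0325901 and CHIR99021. The growth protocol gives that medium for all 24 libraries, the 4 serum ones included, so the labels conflict, and "serum" here follows the titles and treatment labels. Nothing states that replicates were separate cultures, so p-values measure the spread between these libraries, which may be technical.

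OCT4, the product of Pou5f1, is a POU-domain protein, and SOX2 is an HMG-box protein. The pair binds side by side on a composite DNA element, found in enhancers and promoters of their own genes and of Nanog, which encodes a homeodomain protein. In mouse embryonic stem cells Pou5f1 is controlled by a proximal and a distal enhancer upstream of its start, Sox2 by a distant downstream enhancer cluster, and Nanog by an upstream enhancer and by elements shared with the neighbouring gene Dppa3. CHD4 is the remodelling ATPase of the NuRD complex, and CHD8 is a related remodeller known to bind CTCF.

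The 3 genes lie on the plus strand. Pou5f1 (ENSMUSG00000024406.16) spans chr17:35506018-35510772, Sox2 (ENSMUSG00000074637.7) spans chr3:34650405-34652461 inside an intron of the long non-coding RNA gene Sox2ot, and Nanog (ENSMUSG00000012396.12) spans chr6:122707489-122714633. The 250 bp in front of each gene are shown because the start peaks described below lie over or beside them, at chr17:35505768-35506017, chr3:34649745-34649994 and chr6:122707239-122707488 (plus strand, GRCm38). For Sox2 the stretch ends at the RefSeq start, which lies upstream of the GENCODE start. Capitals mark a match to the 15-bp OCT4-SOX2 composite, a SOX site followed directly by an octamer site, with at most 2 mismatches on either strand.
Pou5f1 upstream: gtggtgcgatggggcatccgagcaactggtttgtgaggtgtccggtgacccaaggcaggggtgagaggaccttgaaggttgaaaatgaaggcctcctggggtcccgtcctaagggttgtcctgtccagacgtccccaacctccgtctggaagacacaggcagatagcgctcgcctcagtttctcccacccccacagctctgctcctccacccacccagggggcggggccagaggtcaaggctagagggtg
Sox2 upstream: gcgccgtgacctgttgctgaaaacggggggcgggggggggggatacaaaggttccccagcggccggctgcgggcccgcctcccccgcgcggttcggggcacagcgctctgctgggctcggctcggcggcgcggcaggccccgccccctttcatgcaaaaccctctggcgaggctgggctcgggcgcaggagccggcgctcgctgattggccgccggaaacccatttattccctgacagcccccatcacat
Nanog upstream: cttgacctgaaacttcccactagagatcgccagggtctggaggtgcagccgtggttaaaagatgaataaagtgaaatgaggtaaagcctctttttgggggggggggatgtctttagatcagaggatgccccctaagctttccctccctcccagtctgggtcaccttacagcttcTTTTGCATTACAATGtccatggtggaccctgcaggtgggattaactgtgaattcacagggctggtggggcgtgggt
Of these stretches, the one before Nanog held a match, on the minus strand and with 1 mismatch. Over all windows, 2739 of 233636 (1.17%) held such a match.

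The distal window of Sox2 and the upstream windows of Pou5f1 and Nanog with the highest mean over the 24 libraries of the percentile defined below are shown by their central 201 bp, together with a 115-bp stretch downstream of Sox2 that carries the composite. They lie at chr17:35503673-35503873 (−2.2 kb from Pou5f1), chr3:34761236-34761436 (+110.9 kb from Sox2), chr6:122702624-122702824 (−4.8 kb from Nanog) and chr3:34653999-34654113 (+3.6 kb from Sox2).
Pou5f1 −2.2 kb: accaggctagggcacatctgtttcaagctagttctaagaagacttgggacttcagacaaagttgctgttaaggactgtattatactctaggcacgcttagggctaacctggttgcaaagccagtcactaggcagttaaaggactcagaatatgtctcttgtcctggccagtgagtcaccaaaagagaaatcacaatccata
Sox2 +110.9 kb: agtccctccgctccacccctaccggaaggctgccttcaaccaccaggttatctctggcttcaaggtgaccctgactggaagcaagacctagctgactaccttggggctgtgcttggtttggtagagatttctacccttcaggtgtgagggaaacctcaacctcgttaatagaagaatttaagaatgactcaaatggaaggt
Nanog −4.8 kb: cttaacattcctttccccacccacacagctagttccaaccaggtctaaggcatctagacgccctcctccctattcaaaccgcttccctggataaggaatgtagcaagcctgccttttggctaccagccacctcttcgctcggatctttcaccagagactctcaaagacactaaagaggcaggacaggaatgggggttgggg
Sox2 +3.6 kb: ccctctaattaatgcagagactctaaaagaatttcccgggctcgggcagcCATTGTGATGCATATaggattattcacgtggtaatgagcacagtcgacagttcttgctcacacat
The first 3 of these stretches held no match to the composite or to the CTCF consensus in the letters shown. The Sox2 +3.6 kb stretch held the composite with 1 mismatch on the plus strand.

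CTCF matters here as the degraded protein, so matches to its 14-bp consensus, with at most 1 mismatch on either strand, are shown for the windows that the degradation results turn on. Each is written in the orientation of the consensus, with a mismatched base in capitals.
Nanog +32.4 kb: ccagtaggtggcag
Nanog +79.0 kb: Gcaccaggtggcag
Nanog +120.8 kb: ccTccagggggcgc
Sox2 +109.7 kb: ccagcaggAggcgg
Pou5f1 −55 bp: ccaccaggtggGgg
Pou5f1 −71.2 kb: ccaccaggCggcgc
They lie at chr6:122740136-122740149, chr6:122786467-122786480, chr6:122828273-122828286, chr3:34760102-34760115, chr17:35506139-35506152 and chr17:35435037-35435050. The consensus was found in 11 windows at Pou5f1, 4 at Sox2 and 8 at Nanog, or 23 of 244, against 13005 of 233636 windows overall (5.57%). The match of the Pou5f1 −71.2 kb window, near H2-Q7, recurred letter for letter in the windows at −85.4 and −40.2 kb, near H2-Q6 and H2-Q10. These are near-identical class I histocompatibility genes, and reads from such copies may be assigned to the wrong one, so calls there are uncertain.

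The lists give peaks with the authors' scores and no read counts, so the depth of a library is unknown. They held 59786 to 166697 peaks, and within each of the 4 sets every list was reduced to the length of the shortest by −log10 p. A library called a window when a peak of its reduced list overlapped it, and the strength of a call is given as the percentile of that peak's −log10 p within its own list (0 where no peak was called). Strengths are therefore ranks within a library, not levels that can be compared between libraries. Peaks were also shorter in the knockdown sets, with a median of 80 to 135 bp (Chd4) and 75 to 138 bp (Chd8), beside 283 to 456 bp for the CTCF lines and 371 to 417 bp for serum. Of the 8 CTCF-line lists, 5 held a peak over a mitochondrial-like stretch of chromosome 1 and 3 did not, namely replicate 1 of the control line with IAA and replicate 2 of both overexpressing lines. Knockdown of Chd4 or Chd8 cannot be checked from these lists. Promoters of 6 embryonic stem cell markers (Zfp42, Esrrb, Tfcp2l1, Dppa5a, Tdgf1 and Utf1), taken as called when a peak lay within 1 kb of a start, were all called in every CTCF-line and serum library. So were those of 6 neural markers, and in every CTCF-line library those of 6 mesoderm and 6 trophoblast markers. Of 6 endoderm and 6 fibroblast markers, at most 5 were called in a library. Full calling was thus not particular to the stem cell markers.

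A peak lay within 1 kb of a Nanog start in 24 of 24 reduced lists, of a Sox2 start in 23 and of a Pou5f1 start in 16. Over the 21938 protein-coding genes, 5266 promoters (24%) were called in all 24 libraries. Nanog was therefore among the promoters called throughout, while Sox2 missed 1 library, replicate 1 of Chd4 shRNA2, and Pou5f1 missed 8. These 8 were all in the Chd4 and Chd8 sets, shluci included, whose peaks were shorter. In every CTCF-line and serum library the summit of the best Pou5f1 start peak lay over 1 kb upstream, from −2026 to −1037 bp. The Pou5f1 window at −1.3 kb was called by 22 libraries. The part of peak length in the 8 misses was not tested. With all lists at the common length of 59786 peaks the numbers were 21, 21 and 12. The base of the gene start itself was under a peak in 10 libraries at Nanog, 6 at Pou5f1 and 4 at Sox2.

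The Pou5f1 start peak had percentiles of 63.8 and 53.0 in the control line without IAA and 90.9 and 62.6 with IAA. In the wild-type line it stood at 48.9 and 90.2, and in the mutated line at 51.1 and 90.5. The 3 values near 90 were those of the 3 lists without the mitochondrial-like peak. In those lists the peak was a single interval of 2274, 1760 and 1636 bp with its summit at −2026, −1959 and −1965 bp, so the upstream window at −2.2 kb and the promoter were joined. In the other 5 lists of these lines the summit lay between −1253 and −1037 bp. Serum libraries gave 59.5 and 52.0 without IAA and 64.0 and 49.3 with IAA, with overlapping groups. No start peak was called in replicate 1 of Chd4 shluci, in any of the 4 Chd4 shRNA libraries, in replicate 2 of Chd8 shluci or in either library of Chd8 shRNA1. Replicate 2 of Chd4 shluci had a peak at 24.8, replicate 1 of Chd8 shluci at 41.1, and the Chd8 shRNA2 libraries at 0.0310 and 65.6.

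At Sox2 the start peak had percentiles of 80.1 and 83.1 in the control line without IAA and 86.6 and 84.4 with IAA. The wild-type line gave 86.1 and 80.2 and the mutated line 73.6 and 82.1. In serum the values were 67.2 and 62.4 without IAA and 76.7 and 44.7 with IAA. The summit in these 12 libraries lay between −550 and −432 bp, close in front of the gene. In the Chd4 set the values were 35.96 and 74.1 with shluci, 15.2 and 57.1 with shRNA1, and 0 and 46.4 with shRNA2. The shRNA and shluci libraries overlapped. In the Chd8 set they were 58.4 and 76.4 with shluci, 63.7 and 67.5 with shRNA1, and 48.4 and 68.0 with shRNA2, again overlapping.

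At Nanog the start peak stood between 81.4 and 93.1 in all 8 CTCF-line libraries. Its percentiles were 88.4 and 88.8 without IAA, 87.7 and 93.1 with IAA, 91.6 and 86.3 in the wild-type line and 85.5 and 81.4 in the mutated line. In serum it stood at 61.3 and 45.0 without IAA and at 46.6 and 19.03 with IAA, which overlap. The Chd8 set gave 79.1 and 94.5 with shluci, 89.5 and 45.4 with shRNA1, and 75.6 and 95.1 with shRNA2. In the Chd4 set shluci gave 82.1 and 52.2, shRNA1 gave 55.0 and 53.1, and shRNA2 gave 17.0 and 22.2. The shRNA2 pair lay below the shluci pair, and the shRNA1 values lay between the shluci values. How many other promoters show this order was not counted, so it is not a result about Nanog. The composite OCT4-SOX2 match in front of Nanog sits in the window centred at −256 bp, which 22 of 24 libraries called, the exceptions being replicate 1 of both Chd4 hairpins.

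**Figure D1:**
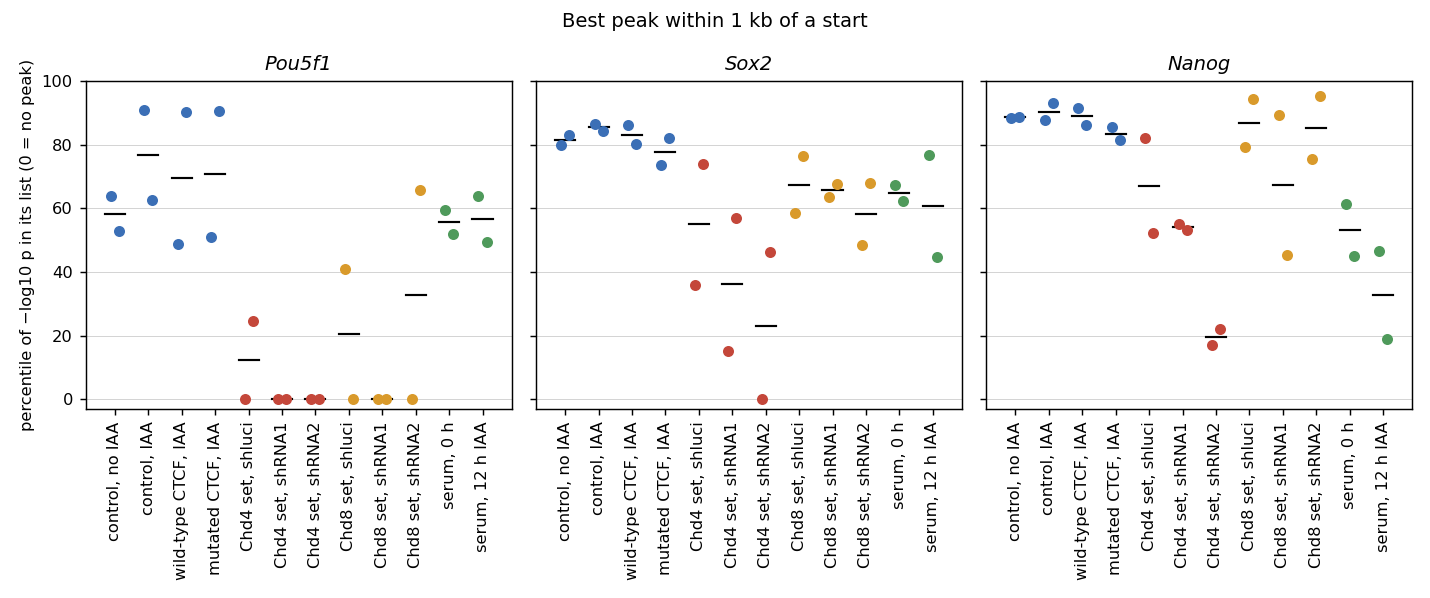
The percentile of the best peak within 1 kb of a start is plotted for each library (points, replicate 1 left and replicate 2 right) and as the mean of each group (bars), with 0 for no peak. Nanog and Sox2 sit above 70 in all 8 CTCF-line libraries, while Pou5f1 splits into 3 libraries near 90 and 5 between 48.9 and 63.8.

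Beyond the starts, the windows were described by the number of libraries that called them. Of the Nanog windows, 26 of 106 were called by at least 20 libraries and 10 by all 24 (9.43%). At Pou5f1 10 of 69 and at Sox2 7 of 69 were called by at least 20, and 0 by all 24. Over all windows the shares were 15.5% and 3.72%. The median window was called by 13 libraries at Nanog, 12 at Pou5f1 and 9 at Sox2, against 9 over all windows.

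The −4.8 kb window of Nanog was called by all 24 libraries with a mean percentile of 97.7 and a lowest value of 89.5, in replicate 2 of Chd4 shRNA1. At +103.5 kb, 216 bp from the start of Gm5112, the window had a mean of 97.9 and a lowest value of 80.8. The −82.8 kb window, upstream of Dppa3, a gene of the early embryo, held the composite with 2 mismatches, was called by all 24, and had a mean of 91.4. Windows at +57.5 and +63.1 kb, in introns of the glucose transporter gene Slc2a3, were also called by all 24 with means of 88.0 and 86.7. These 5 had the highest mean percentile over the 24 libraries at Nanog. In the CTCF lines the windows at +119.1 kb (97.3 to 99.4) and −44.5 kb (95.5 to 99.1) stood above the one at +57.5 kb (80.9 to 92.0).

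At Sox2 the +110.9 kb window had the highest mean percentile over the 24 libraries, 81.7, and was called by 22. In the CTCF lines it stood between 86.9 and 94.5, in serum between 70.7 and 94.8, and in the Chd8 set between 92.9 and 98.4. Neither library of Chd4 shRNA1 called it, while shRNA2 gave 73.0 and 73.2 and shluci 95.0 and 90.6. This order was not that of each set. In all 8 CTCF-line libraries the windows at +95.0 kb (95.6 to 98.0) and +145.3 kb (94.3 to 97.3) stood above the +110.9 kb window. By the mean over all libraries the next windows were at +95.0, +145.3, +18.3 and +136.9 kb, with means of 78.6, 77.8, 72.2 and 60.1, called by 22, 22, 20 and 19 libraries. The +18.3 kb window lies in an intron of Sox2ot, and the 4 others are intergenic, on the side of the downstream enhancer cluster.

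At Pou5f1 the −2.2 kb window had the highest mean over the 24 libraries, 73.9, and was called by 22. It was followed by −15.5 kb (66.0, 20 libraries), +33.7 kb (60.4, 20 libraries), −1.3 kb (59.5, 22 libraries) and +85.0 kb (58.3, 22 libraries). In the CTCF lines the −15.5 kb window, at 90.8 to 95.4, stood above the −2.2 kb window, at 87.3 to 91.4, in all 8 libraries. The +33.7 kb window carried the composite with 2 mismatches and the +85.0 kb window the CTCF consensus with 1. Within 1 kb of the start, the window at −565 bp was called by 15 libraries and the one at −55 bp by 8. At Sox2 the windows at −490 and 634 bp were called by 20 and 11, and at Nanog the one at −860 bp by 5.

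**Figure D2:**
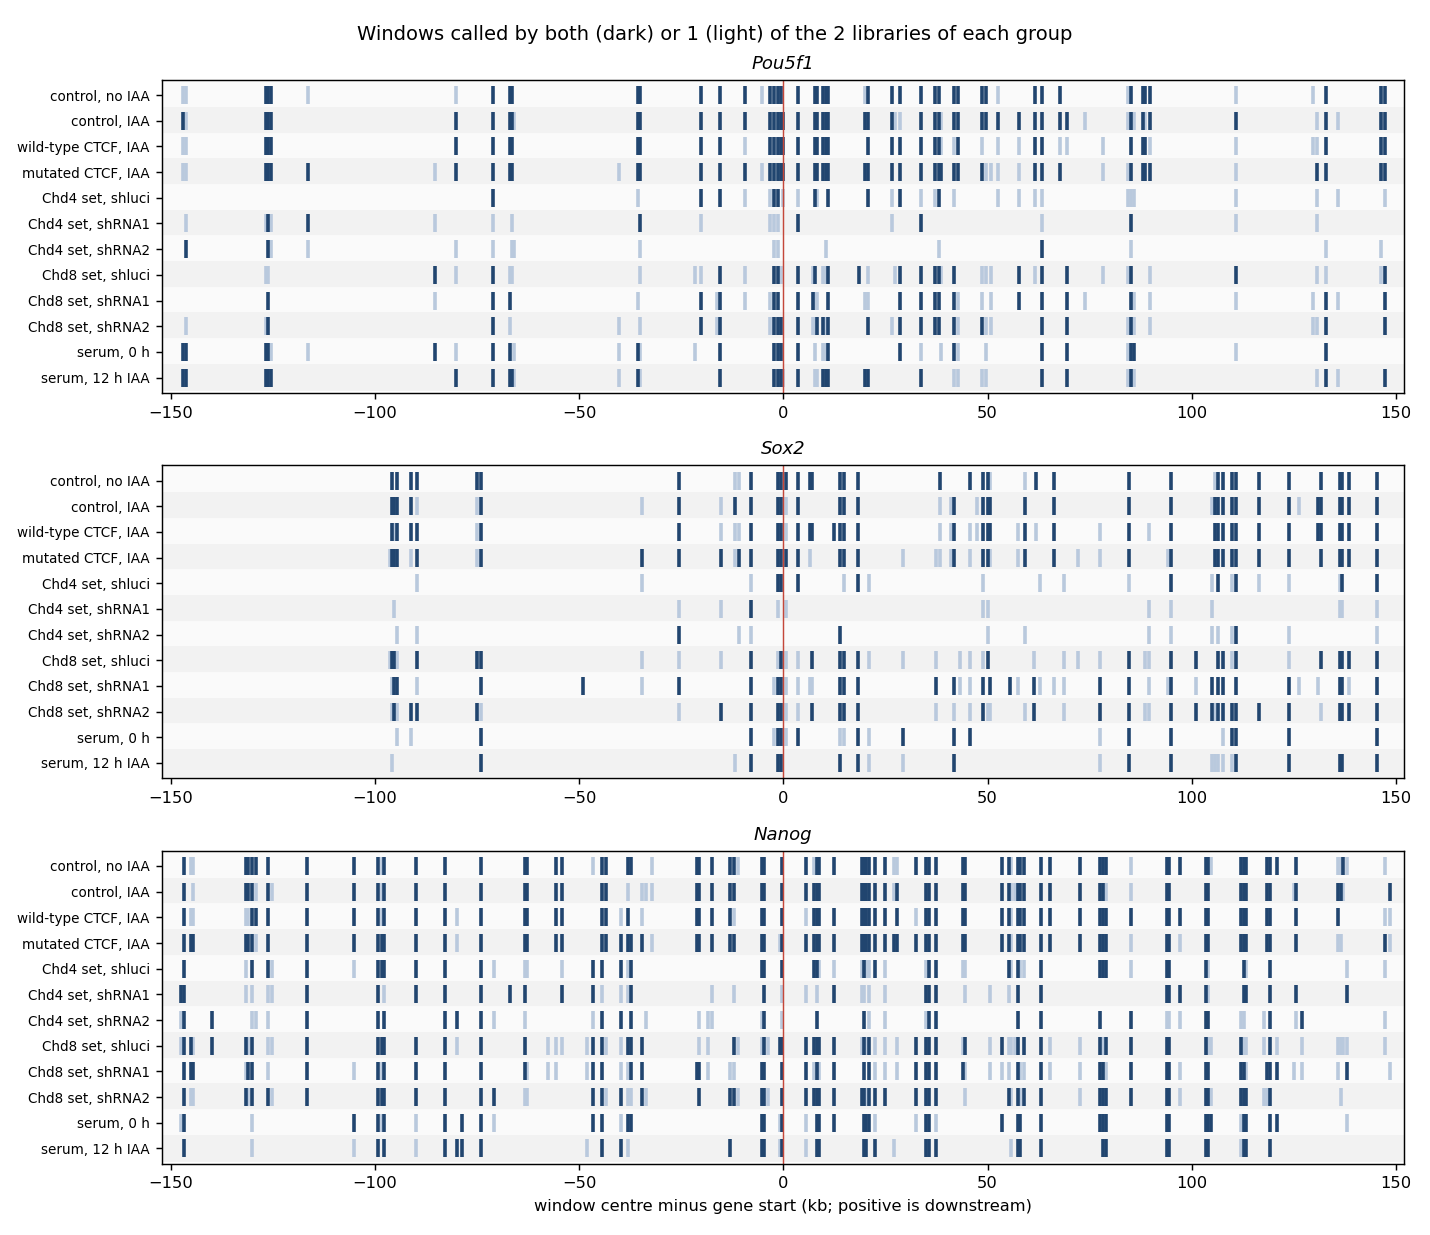
Each mark is a 501-bp window, placed by the distance of its centre from the gene start in kb, for each of the 12 groups. Dark marks were called by both libraries and light marks by 1, and the red line is the start. The Nanog row of marks is the densest, and the 2 Chd4 shRNA rows are sparse at Pou5f1 and Sox2.

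The first comparison asks what degradation of CTCF does to accessibility. A window was counted as lost when both libraries without IAA and neither with IAA called it, and as gained in the opposite case. In serum-free medium 9 of the 146 windows that could be lost at the 3 loci were lost (6.16%), against 6.59% of all windows, and 7 of 67 were gained (10.4%), against 9.35%. In serum 12 of 74 were lost (16.2%), against 8.61%, and 8 of 132 were gained (6.06%), against 3.54%. Among the serum gains, the windows at +20.1 and +20.7 kb of Pou5f1 had equal percentiles in each library with IAA. So had those at +136.4 and +136.9 kb of Sox2, and each pair may be a single peak. By locus, losses in serum-free medium were 0 of 41 at Pou5f1, 4 of 36 at Sox2 and 5 of 69 at Nanog. In serum they were 2 of 21, 2 of 15 and 8 of 38. In these bulk libraries, fewer cells with an open window and less accessibility per cell cannot be told apart. No test was run for single windows, since 2 libraries against 2 give an exact permutation p of 0.333 at the smallest and so could not pass 0.05. In serum the counts moved to 1 lost and 2 gained for peaks with −log10 q of at least 10, and to 5 and 3 for windows covered by at least 50%.

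In both media 4 windows were lost, which is 44.4% of the 9 and 33.3% of the 12. The media share no libraries, and these windows were singled out after their values were seen. Over all windows 1517 were lost in both, or 18.5% and 31.7%. The 4 lie at −37.2, +12.5 and +120.8 kb of Nanog and at +45.7 kb of Sox2. With all lists at one common length, the Nanog +12.5 kb window kept its loss in serum-free medium, and the other 3 were called by 0 control-line libraries without IAA, so that they could not be lost in serum-free medium. The common length is that of the serum lists, whose calls therefore stay the same in that setting by construction. The Nanog +12.5 kb window, intergenic, stood at 58.2 and 57.9 without IAA, at 0 and 0 with IAA, at 33.4 and 45.5 in the wild-type line and at 52.8 and 50.0 in the mutated line. It was thus uncalled in the control line with IAA and called in all 4 libraries of the overexpressing lines, although at one common length it was called by 0 wild-type libraries and 1 mutated one. The Nanog +120.8 kb window, in an exon of Foxj2 and with the CTCF consensus at 1 mismatch, was called by 0 libraries of either overexpressing line. No window gained in serum-free medium was also gained in serum. Over all windows 156 were gained in both, or 2.30% of the serum-free and 2.98% of the serum gains.

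Of windows with the CTCF consensus called by both libraries without IAA, 2 of 11 at the 3 loci were lost in serum-free medium and 2 of 8 in serum, against 34.8% and 40.8% of such windows overall. In serum the losses were at +120.8 kb of Nanog and at −85.4 kb of Pou5f1, near H2-Q6, where calls are uncertain. Both of the serum-free losses were at Nanog. The +32.4 kb window, in an exon of Slc2a3 and with a full match, stood at 62.2 and 54.6 without IAA and at 0 and 0 with IAA. In the wild-type line it stood at 16.6 and 0 and in the mutated line at 5.74 and 10.6. At Sox2 the +109.7 kb window, in the distal enhancer stretch, was called by both libraries of all 4 CTCF-line groups, at 49.0 and 48.8 without IAA and 36.1 and 40.2 with IAA. With all lists at one common length, 0 control-line libraries called it without IAA and 0 with IAA. In that setting it was called by 0 wild-type libraries and 1 mutated one. CTCF windows called by at least 12 libraries also included those at −71.2, +3.5, +7.8 and +85.0 kb of Pou5f1, −94.7 kb of Sox2 and +79.0 kb of Nanog. Of these 6, the first 5 were called by both control-line libraries with IAA, and the Nanog +79.0 kb window by replicate 1, at 52.8, and not by replicate 2.

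None of the 4 windows with the composite that both libraries without IAA called in serum-free medium was lost there, against 5.36% of such windows overall. In serum 1 of 4 was lost, the Sox2 +3.6 kb window, against 5.15%. It stood at 38.5 and 57.1 without IAA and at 0 and 0 with IAA, while in the control line it stood at 61.9 and 68.3 without IAA and at 67.2 and 77.8 with it. The Sox2 window was thus called in all 4 serum-free libraries of the control line and in the serum libraries without IAA.

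Beside the Sox2 +3.6 kb window, the losses of highest mean percentile in serum were at +28.6 kb of Pou5f1, in an exon of Psors1c2 (mean 63.7 without IAA), and at +77.6 and +20.9 kb of Nanog (61.5 and 59.4). In serum-free medium the third of the leading losses, after the Nanog +32.4 and +12.5 kb windows, was at +97.2 kb of Nanog (57.1). The leading gains in serum-free medium were the Pou5f1 window at −55 bp (mean 76.7 with IAA) and the windows at −95.2 and +130.9 kb of Sox2 (67.2 and 62.3). The Pou5f1 window, with the CTCF consensus at 1 mismatch 121 bp inside the gene, was called by 0 libraries without IAA and by all 6 with IAA of the CTCF lines, at 90.9 and 62.6 in the control line. Its highest value came from the joined peak of 2274 bp. In serum it was called by 1 library, with IAA. The peaks behind all 3 of these gains also covered a neighbouring window that both libraries without IAA called (−1.3 kb at Pou5f1, −94.7 and +131.6 kb at Sox2), so a peak was called beside each in both groups. This held for no other of the 7 gains and for 0 of the 9 losses in serum-free medium, and in serum for 1 of the 12 losses (Nanog +20.9 kb) and 0 of the 8 gains. It was counted only where every calling library shared the peak. In serum replicate 1 without IAA, the Nanog +77.6 kb loss had the percentile (67.7) of the windows at +78.3 and +79.0 kb. In replicate 2 the Nanog +104.7 kb loss had that of the +103.5 kb window (99.4). Both libraries with IAA called these 3 neighbours. The leading gains in serum were at +147.3 and −66.3 kb of Pou5f1 (39.4 and 30.1) and at −79.8 kb of Nanog, in an intron of Dppa3 (28.8). The −66.3 kb window lies in an exon of H2-Q7, one of the near-identical genes where calls are uncertain.

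The number of called windows per locus gives a single value for each library. Pou5f1 had 45 and 47 without IAA and 53 and 52 with IAA in serum-free medium, and 29 and 29 against 31 and 35 in serum. It was higher with IAA without overlap in both media, as were 17.3% and 17.2% of the 21397 protein-coding genes with windows. Within 50 kb the difference fell from 6.5 to 1.5 in serum-free medium and from 4 to 2.5 in serum, each with an exact permutation p of 0.667, so that the groups were no longer apart, nor were they in serum for windows covered by at least 50% (4.5, with the same exact p). Nanog had 82 and 72 against 74 and 71, which overlap, and in serum 46 and 43 against 38 and 38, lower without overlap, as were 12.0% of genes. This difference of −6.5 kept its sign in the other settings that could change it, but went to −4.5 with −log10 q of at least 10, −2.5 at the deposited list lengths, −1.5 within 50 kb and −1 for windows covered by at least 50%, each with an exact permutation p of 0.667. In the same serum libraries, promoters called among 6 trophoblast markers went from 6 and 6 to 4 and 3, and among 6 mesoderm markers from 6 and 6 to 4 and 4. Among 6 endoderm markers they went from 5 and 5 to 5 and 3, while 6 neural and 6 fibroblast markers gave 6 and 6 and 5 and 5 in both groups. The part of these markers in the result was not tested. Without replicate 1 of the control line without IAA, the serum-free difference at Nanog went from −4.5 to 0.5. Sox2 had 39 and 38 against 41 and 39, and 19 and 20 against 20 and 18, overlapping in both media.

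Over both media, the mean difference was 5.25 windows at Pou5f1, with an exact two-sided permutation p of 0.0556 within media, the smallest that 36 arrangements can give, and 0.815 after Benjamini-Hochberg adjustment over all genes. For Nanog it was −5.5 (exact permutation p of 0.111, adjusted 0.815) and for Sox2 0.5 (exact permutation p of 0.778, adjusted 1). The median difference over all genes was 0.25. None of the 3 passed 0.05. Between the control lists with the mitochondrial-like peak, 2 without IAA against 1 with IAA, the serum-free differences were 6 at Pou5f1, 0.5 at Sox2 and −6 at Nanog, with 13 windows lost and 13 gained. The lists without it held no library without IAA. With peaks of −log10 q of at least 10, the Pou5f1 difference was 2 in serum-free medium and −0.5 in serum, so its direction in serum turned over at that limit.

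**Figure D3:**
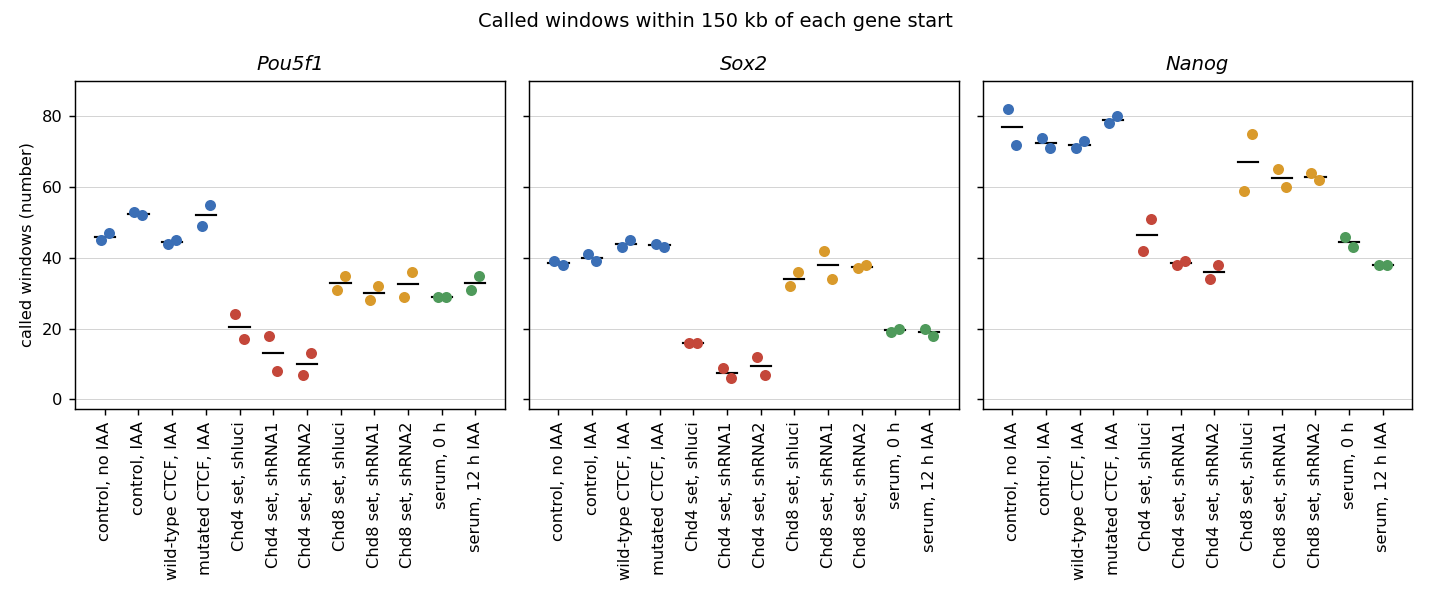
The number of called windows within 150 kb of the start is plotted for each library (points) with the group mean (bars). At Pou5f1 the IAA pairs lie above the pairs without IAA in both media, and in the Chd4 set all 4 shRNA libraries lie below both shluci libraries at Sox2 and Nanog.

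The overexpressing lines ask which changes return when wild-type or mutated CTCF is supplied under IAA. They are set against the same control libraries, so their values stand side by side. In the wild-type line 3 of 147 windows were lost (2.04%), against 4.82% of all windows, and 5 of 61 gained (8.20%), against 8.13%. In the mutated line 2 of 147 were lost (1.36%), against 3.63%, and 8 of 61 gained (13.1%), against 7.68%, with 6 of the 8 at Nanog. The Nanog +12.5 kb window was among the gains of both lines, with means of 39.4 in the wild-type and 51.4 in the mutated line. The +97.2 kb window of Nanog was called by both wild-type libraries and by 1 mutated one. The full-match CTCF window at +32.4 kb was gained in the mutated line and called by 1 of 2 wild-type libraries. With all lists at one common length, the +97.2 and +32.4 kb windows were called by 0 libraries of either overexpressing line, and none of the 5 gains of the wild-type line or the 8 of the mutated line met the rule. The other leading gains were the Sox2 +6.6 kb window in the wild-type line (17.6), which shares its peak with the window at +7.1 kb, and the Nanog windows at +147.3 and −39.8 kb in the mutated line (41.8 and 30.5).

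Losses in the wild-type line were at +20.1 and +49.6 kb of Pou5f1 (75.0 and 27.4 in the control line) and at +136.5 kb of Nanog (12.5). Those in the mutated line were at +130.9 kb of Sox2 (62.3) and +69.6 kb of Pou5f1 (23.2). The Sox2 +130.9 kb window stood at 63.7 and 60.9 in the control line with IAA, at 64.3 and 66.1 in the wild-type line and at 0 and 0 in the mutated line. These values are those of a peak that also covered the window at +131.6 kb, which the mutated line called at 66.4 and 41.8, so a peak was called beside it in all 3 groups. Between the lines, wild-type against mutated, 5 of 156 windows were lost (3.21%), against 3.78%, and 3 of 51 gained (5.88%), against 4.87%, all 3 at Sox2. The loss of highest percentile was at +20.1 kb of Pou5f1, in an intron of Cchcr1 (72.6 in the mutated line). Its peak also covered the window at +20.7 kb, which stood at 72.4 and 61.5 in the wild-type line and at 79.1 and 71.0 in the control line with IAA, so a peak was called beside it in all 3 groups. It was followed by +27.1 kb of Nanog (33.8) and −34.6 kb of Sox2 (22.1). The gains were the Sox2 windows at +130.9, +7.1 and +12.5 kb (65.2, 17.6 and 5.28).

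Pou5f1 had 44 and 45 called windows in the wild-type line and 49 and 55 in the mutated line, beside 53 and 52 in the control line with IAA. The wild-type values lay below the control values, as in 20.9% of genes, and below the mutated ones, as in 22.1% (5.38% lay above the mutated ones). At Sox2 the wild-type line had 43 and 45 and the mutated line 44 and 43, both above the control values of 41 and 39, as in 9.07% and 14.9% of genes. At Nanog the wild-type line, with 71 and 73, overlapped the control line with 74 and 71, and the mutated line, with 78 and 80, lay above it. For windows covered by at least 50% this difference of 6.5 turned to −0.5, and at one common length it was 4.5 with an exact permutation p of 0.667. Each difference without overlap had an exact permutation p of 0.333, the smallest possible, and an adjusted p of 1.

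The lists holding the mitochondrial-like peak and those lacking it give 1 library against 1 each. In that order, the Pou5f1 difference of the wild-type line was −8 and −8, the Sox2 difference 4 and 4, and the Nanog difference 0 and −1. For the mutated line they were −3 and 2 at Pou5f1, 5 and 2 at Sox2, and 7 and 6 at Nanog. Between the wild-type and the mutated line they were −5 and −10, −1 and 2, and −7 and −7. Windows lost and gained were then 20 and 16 with the peak and 24 and 19 without it for the wild-type line, 14 and 23 and 16 and 26 for the mutated line, and 23 and 10 and 28 and 13 between the lines. The higher Sox2 value of the wild-type line turned over with all lists at one common length, at −3.5, with −log10 q of at least 10, at −1.5, and for windows covered by at least 50%, at −3.

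The knockdown sets address what CHD4 and CHD8 contribute to open chromatin. With the Chd4 hairpins, 13 of 53 windows called by both shluci libraries at the 3 loci were called by 0 of the 4 shRNA libraries (24.5%), against 14.3% of all windows. The losses were 5 of 10 at Pou5f1, 3 of 9 at Sox2 and 5 of 34 at Nanog. One window of 131 was gained (0.763%), against 1.93%, at −126.2 kb of Pou5f1 in an exon of H2-Q4. For windows covered by at least 50% the losses numbered 4 in place of 13, and for peaks with −log10 q of at least 10 they numbered 8. Of the 13, 8 were also lost with all lists at one common length. The number of peaks at that limit also differed, at 15501 and 16498 in the shluci lists and 7062, 8443, 8563 and 6930 in the shRNA lists, and the part of this difference in the losses was not tested.

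Within 1 kb of a start, the loss was the Sox2 window at −490 bp, which 1 shluci library called with all lists at one common length, so that it was not lost there. It stood at 35.96 and 4.00 with shluci, at 0 in the 4 shRNA libraries, between 73.6 and 86.6 in the CTCF lines and between 39.2 and 68.0 in the Chd8 set. The 4 libraries with a Chd4 hairpin were thus the ones of the 24 in which no peak of the reduced list overlapped it. The Pou5f1 −15.5 kb window stood at 83.2 and 27.5 with shluci and at 54.2 to 97.2 in the Chd8 set, and the 4 Chd4 shRNA libraries did not call it.

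The loss of highest percentile was the Sox2 +18.3 kb window, in an intron of Sox2ot. It stood at 86.1 and 76.2 with Chd4 shluci, at 0 in the 4 shRNA libraries, between 87.4 and 96.0 in the CTCF lines, between 81.7 and 95.0 in the Chd8 set and between 58.7 and 85.6 in serum. Next came the Pou5f1 +7.8 kb window, in an intron of Tcf19 (mean 59.5 with shluci). The Sox2 +3.6 kb window with the composite was also lost, from 26.3 and 58.3. The Pou5f1 −2.2 kb window was not lost by this rule, at 83.5 and 89.8 with shluci, 21.7 and 0 with shRNA1 and 0 and 51.9 with shRNA2. Its values in the shRNA libraries lay below both shluci values, and how many other windows show this order was not counted. Of all windows that both shluci libraries called, 30.4% were called by all 4 shRNA libraries.

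Retention was then counted window by window. Of the 34 Nanog windows that both shluci libraries called, 13 were called by all 4 shRNA libraries, against 0 of 10 at Pou5f1 and 0 of 9 at Sox2. The share was 38.2% at Nanog and 30.4% over all windows. A window called with shluci was called on average by 66.9% of the shRNA libraries at Nanog, 20% at Pou5f1 and 25% at Sox2, and by 59.1% over all windows. Windows called by all 20 libraries without a Chd4 hairpin are a stronger set, with 17 at Nanog and 5 at each of the others. Of these, 10 at Nanog, 0 at Pou5f1 and 0 at Sox2 were called by all 4 shRNA libraries, beside 39.4% of all such windows. No test of the difference between loci was run, since windows of a locus share their libraries. The −4.8 kb window of Nanog stood at 98.2 and 97.8 with shluci and at 94.9, 89.5, 95.0 and 98.9 with the hairpins.

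**Figure D4:**
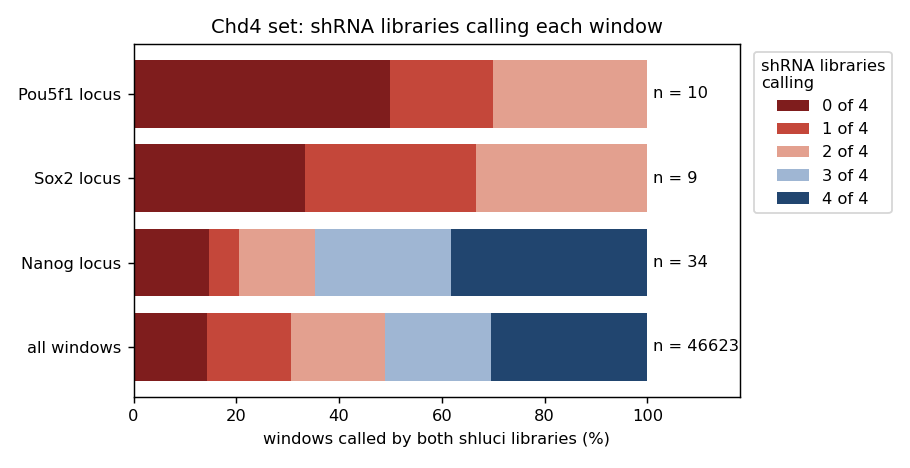
For the windows called by both Chd4 shluci libraries, the bars give the percentage called by 0, 1, 2, 3 or 4 of the 4 Chd4 shRNA libraries, at each locus and over all windows, with n the number of windows. The bars of Pou5f1 and Sox2 end at 2 of 4 libraries, while 13 of 34 Nanog windows were called by all 4.

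Per library, Pou5f1 had 24 and 17 called windows with Chd4 shluci, 18 and 8 with shRNA1 and 7 and 13 with shRNA2, which overlap. Sox2 had 16 and 16, 9 and 6, and 12 and 7, and Nanog had 42 and 51, 38 and 39, and 34 and 38. At Sox2 and Nanog all 4 shRNA libraries lay below both shluci libraries, as in 38.3% of genes, while 6.67% of genes lay above. The mean at Sox2 was 16 with shluci and 8.50 ± 2.65 (SD, n = 4) with the hairpins, a difference of −7.5 with an exact two-sided permutation p of 0.0667, the smallest possible, and 0.193 after adjustment over all genes. The shluci mean at Nanog was 46.5 ± 6.36 (SD, n = 2), and the hairpin mean was 37.25 ± 2.22 (SD, n = 4), which gives a difference of −9.25 with the same exact permutation p and adjusted p. The shluci mean at Pou5f1 was 20.5 ± 4.95 (SD, n = 2), and the hairpin mean was 11.5 ± 5.07 (SD, n = 4), giving a difference of −9 with an exact permutation p of 0.2 (adjusted 0.380).

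At Sox2 and Nanog the shRNA libraries were no longer all below in some settings, with an exact permutation p of 0.133 at Sox2 at the deposited lengths (−13) and at Nanog at one common length (−6.5) and within 50 kb (−4.75).

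The median over all genes was −2.5 windows, or −22.7%, beside −43.9% at Pou5f1, −46.9% at Sox2 and −19.9% at Nanog. The Nanog percentage was thus close to that of the median gene. Without shluci replicate 1 the Pou5f1 difference was −5.5, and without shluci replicate 2 the Nanog difference was −4.75. Without shluci replicate 1 or 2, losses at the 3 loci numbered 28 and 26, since a single shluci call then sufficed. Replicate 1 lists of the Chd4 set were longer as deposited (135583 to 141742 peaks) than replicate 2 lists (80619 to 93091) in every arm. Of the 6 embryonic stem cell markers, 5 and 5 promoters were called with shluci, 3 and 5 with shRNA1 and 2 and 4 with shRNA2. In the same order, 6 fibroblast markers gave 2 and 2, 3 and 3, and 3 and 3, and 6 neural markers 3 and 4 in each arm. The 6 mesoderm markers gave 4 and 3, 3 and 3, and 3 and 2, the 6 endoderm markers 2 and 5, 2 and 3, and 2 and 4, and the 6 trophoblast markers 4 and 3, 3 and 2, and 4 and 4. The part of these markers in the result was not tested.

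With the Chd8 hairpins, 3 of 89 windows were lost (3.37%), against 3.44% of all windows, and 1 of 65 was gained (1.54%), against 1.28%. The losses were at −139.9 kb of Nanog (mean 34.4 with shluci), +18.4 kb of Pou5f1 (28.9) and −860 bp of Nanog (22.4). The gain was at +104.9 kb of Sox2, in the distal enhancer stretch (57.5 with the hairpins). Of these, 0 remained for peaks with −log10 q of at least 10, for windows covered by at least 50% and with all lists at one common length. Called windows overlapped at all 3 loci, where 3.48% of genes were lower and 3.28% higher without overlap. Pou5f1 had 31 and 35 with shluci against 28, 32, 29 and 36, Sox2 had 32 and 36 against 42, 34, 37 and 38, and Nanog had 59 and 75 against 65, 60, 64 and 62. The exact permutation p was 0.667, 0.333 and 0.533, each with an adjusted p of 1, and a shortfall of p from the threshold does not show that the groups are alike.

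**Figure D5:**
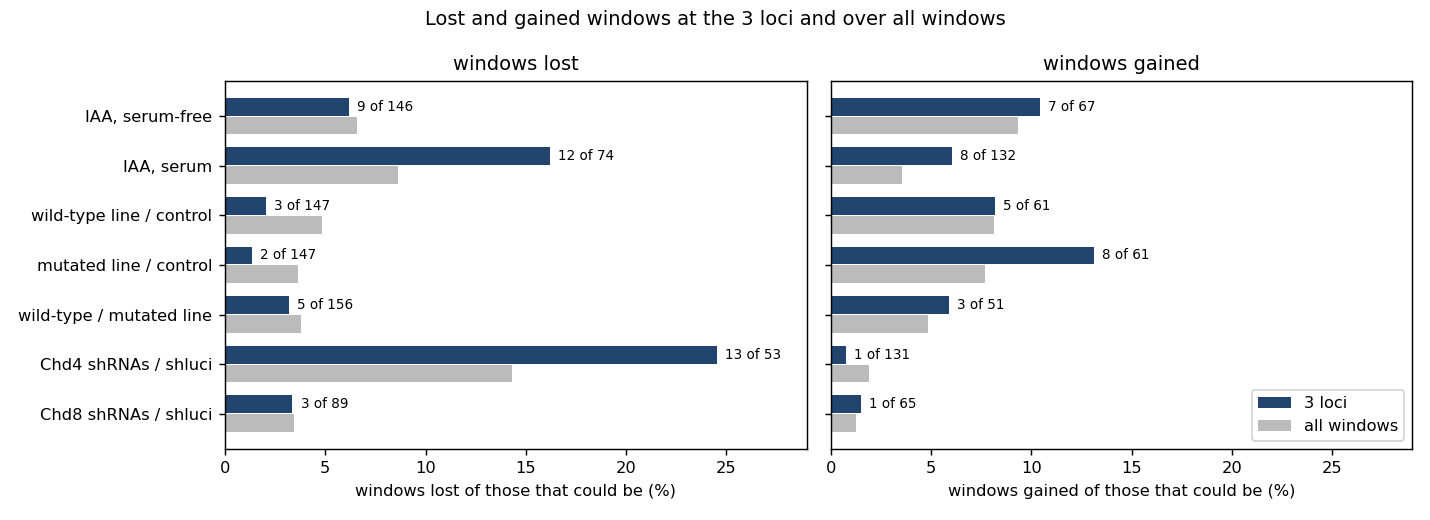
For each comparison, written as treated over reference, the dark bar gives the percentage of windows lost (left) or gained (right) at the 3 loci among those that could be, with the counts beside it, and the grey bar gives the same over all windows. The longest dark bar is the 13 of 53 windows lost with the Chd4 hairpins, beside a grey bar of 14.3%.

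Promoters of 28 other genes of the pluripotency network were counted beside the members. Of these, 5 were called in all 24 libraries, including Esrrb, an orphan nuclear receptor (mean percentile 86.2). The promoter of Gdf3, a TGF-β family ligand gene next to Nanog and Dppa3, was called in 23, and that of Dppa3 in 1. With IAA, 0 of 27 promoters were lost in serum-free medium and 0 of 26 in serum, where 0.511% and 0.793% of all promoters were, and 0 of 1 and 0 of 2 were gained, beside 1.37% and 1.56%. With the Chd4 hairpins 2 of 20 were lost, beside 4.44% of all promoters. These were Klf5, a Krüppel-like factor, and Sall4, a zinc-finger factor, each called by all 20 libraries without a Chd4 hairpin and by 0 of 4 with one. With the Chd8 hairpins Lin28a, an RNA-binding protein gene, was gained, 1 of 3 that could be, beside 0.635%. Against the control line with IAA, 0 of 27 were lost in the wild-type and 0 of 27 in the mutated line, beside 0.609% and 0.463% of all promoters. Between these lines it was 0 of 27 lost and 0 of 1 gained, beside 0.418% and 0.490%, and with the Chd8 hairpins 0 of 24 lost, beside 0.416%. Of the promoters of Pou5f1, Sox2 and Nanog, 0 met the rule for loss in any of the 7 comparisons, beside the shares of all promoters given above. All 3 could be lost in the comparisons of the CTCF lines and of serum, and 2 in each Chd set. A gain was possible for 0 of them, since every reference group called each in at least 1 library.

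The promoters most alike in pattern were found among 3924 genes called in all 24 libraries at one common length, by Pearson's r of the mean percentile over the 12 groups. The groups are not independent points, since those of a knockdown set share shorter peaks than those of the CTCF lines and serum. The leading ones included Trim35 (r = 0.91) and Adamts3 (0.88) for Pou5f1, Celf6 (0.96) and Angptl2 (0.94) for Sox2, and Steap3 (0.95) for Nanog.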

How the data were processed

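Peak lists of 24 ATAC-seq libraries, 12 groups of 2, were used as deposited. Per the submitters' processing notes, Trim Galore, Bowtie2, MACS2 and deepTools were used with mm10, and their roles, versions and settings are not given in the sources used here. The layout of the deposited lists gives, per peak, an interval, a fold (a ratio to local background), the −log10 of p and of q, and a summit offset. These are the authors' values and rank peaks within their own list. No reads were used, so depth is unknown and no counting interval is given. No peak lay past a GRCm38 chromosome end (21 chromosomes).

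Within each of 4 sets, lists were cut to the length of the shortest by −log10 p: 120137 peaks in the CTCF lines, 80619 in the Chd4 set, 135410 in the Chd8 set and 59786 in the serum set. Windows of 501 bp were placed around summits by percentile without overlap. Of 405819, the 233636 called by at least 2 libraries were kept. A call needed an overlap of 1 bp. Called windows within 150 kb were counted for 21397 protein-coding genes and tested by exact two-sided permutation, with Benjamini-Hochberg adjustment over all of them. The smallest p is 0.333 for 2 libraries against 2, 0.0667 for 2 against 4 and 0.0556 for both media, so none of these designs can pass 0.05. The call rule, the permutation test and the motif scan were tested on simulated data (Python 3.11.15, numpy 2.4.6, scipy 1.17.1).

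Named were the windows within 1 kb of a start, the 5 others of highest mean percentile per locus, up to 3 lost and 3 gained windows per comparison, motif windows called by at least 12 libraries, and the 3 promoters most alike per gene. Alternatives were the deposited and a common list length, −log10 q of at least 10, windows covered by at least 50%, 50 kb either side, leaving out each replicate and a replicate block. Peaks shared by neighbouring windows were traced after the results were seen. Members, lists and rules were chosen with earlier results of these data known. Replicate numbers are shared between groups, and nothing in the labels says that they mark a batch. Some windows and genes that meet the naming rules are not reported here.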

Additional observations from a re-analysis of the deposited data

How the results depend on the processing

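Depth limits all calls, since a window without a peak may still be open at a level the list does not reach. Of the 14 counts of lost and gained windows, 3 moved by over 1.5 times with lists at their deposited length, 8 at one common length, 8 with −log10 q of at least 10 and 10 with windows covered by at least 50%. Of the windows lost and gained in serum-free medium with IAA, 3 of 9 and 3 of 7 met the rule at one common length. For the wild-type line it was 1 of 3 and 0 of 5, for the mutated line 1 of 2 and 0 of 8, and between the lines 1 of 5 and 1 of 3. The cause of these moves was not tested, except that leaving out a library loosens the rule by construction. Of the 24 differences in called windows, 20 kept their direction with lists at their deposited length, 19 at one common length, 16 with −log10 q of at least 10, 19 with windows covered by at least 50% and 18 within 50 kb. The differences of the Chd4 set kept theirs in all 5. The common length is the serum lists' own, so the 3 serum differences could not change there.

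With lists at their deposited length, losses between the wild-type and the mutated line numbered 3, gains with the Chd4 hairpins 2 and with the Chd8 hairpins 0. The IAA difference at Sox2 was −0.5 (serum-free) and 2.5 (serum), the Nanog difference of the wild-type line 1.5 and the Pou5f1 difference of the mutated line 1. At one common length, losses and gains numbered 9 and 2 in the wild-type line, 4 and 4 in the mutated line, and 0 and 0 with the Chd8 hairpins, gains between the lines numbered 1 and with the Chd4 hairpins 0. The Sox2 difference was then −3.5 in the wild-type line and −4 between the lines, and the Chd8 differences were 2 at Pou5f1, −0.75 at Sox2 and 0 at Nanog.

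With −log10 q of at least 10, losses and gains numbered 1 and 2 in serum, 5 and 9 in the wild-type line, 8 and 0 with the Chd4 hairpins and 0 and 0 with the Chd8 hairpins. The serum differences were −0.5 at Pou5f1 and 2.5 at Sox2, those of the wild-type line −1.5 at Sox2 and 3 at Nanog, those of the mutated line 3 at Pou5f1 and 0 at Sox2, that between the lines −1.5 at Sox2 and that of the Chd8 hairpins −1.25 at Sox2. With windows covered by at least 50%, losses and gains numbered 5 and 3 in serum, 7 and 2 in the wild-type line, 5 and 3 in the mutated line, 4 and 0 with the Chd4 hairpins and 0 and 0 with the Chd8 hairpins. The Sox2 difference was 1 in serum, −3 in the wild-type line and −5.5 between the lines, and the Nanog difference was −0.5 in the mutated line and 1.75 with the Chd8 hairpins. Within 50 kb, the IAA difference at Sox2 was −1 in serum-free medium and −2 over both media, the Nanog difference of the wild-type line 0, the Pou5f1 difference 1 in the mutated line and 0.5 with the Chd8 hairpins, and the Sox2 difference between the lines −0.5.

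Leaving out each library in turn gave, in serum-free medium with IAA, 13 to 15 losses and 13 to 19 gains, and in serum 15 to 20 and 12 to 16. The wild-type line gave 8 to 14 and 8 to 12, the mutated line 7 to 10 and 15 to 18, and the lines against each other 10 to 17 and 4 to 7. The Chd4 hairpins gave 14 to 28 and 1 to 5, and the Chd8 hairpins 3 to 12 and 1 to 9. Differences in called windows then ran from −9.5 to 0.5 at Nanog in serum-free medium (0.5 without replicate 1 of the control line without IAA), from −1.5 to 0.5 at Sox2 in serum and from 0 to 1 at Sox2 over both media. They ran from −2 to 1 at Nanog in the wild-type line, from −3.5 to 2.5 at Pou5f1 in the mutated line and from −0.5 to 1.5 at Sox2 between the lines. With the Chd8 hairpins they ran from −3.75 to 0.25 at Pou5f1 and from −12.25 to 3.75 at Nanog, both turning over without shluci replicate 2.

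With a replicate block by replicate number, the differences equal those without it by construction, since each group holds both numbers. The Chd4 differences were thus −9, −7.5 and −9.25 with an exact p of 0.5, the smallest possible. The block could therefore change no direction and give no call. Deviations of same-numbered libraries correlated between −0.135 and 0.130. Crossing the numbers where the correlation was −0.135 and −0.100, chosen after seeing the data, gave 0 calls, as did the numbers as labelled. Neither could give any, as the smallest exact p is the same.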
